A study of Mus musculus with 4 samples.

Results

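Glycolysis and hypoxia genes were followed as a fixed list of 36 genes of the 27998 in the feature lists, chosen by symbol, and all 36 were found. The list holds the glucose transporters, the enzymes that carry glucose to pyruvate and lactate, the regulators of that flux, the oxygen-sensing genes, and genes that are commonly induced when oxygen is short. Glycolysis breaks glucose down to pyruvate in the cytosol, and pyruvate is turned into lactate when it is not burned in mitochondria. When oxygen is ample, prolyl hydroxylases mark the transcription factor subunit HIF-1alpha for destruction, and when oxygen falls the subunit persists, pairs with ARNT and binds short DNA elements near many of these genes. In tumours, the same genes are known from poorly perfused regions, and glycolysis is also known to be raised in activated lymphocytes and myeloid cells without a lack of oxygen.

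The cells came from B16-GP33 melanomas, a C57BL/6 tumour line carrying the viral peptide GP33, grown for 18 days under the skin of the right flank in C57BL/6 mice. Leukocytes that carried CD45.2 and excluded propidium iodide were sorted after enzymatic dissociation at 37 degrees and captured on the 10x Genomics Chromium platform. All mice received an antibody on days 8, 10 and 12: the IgG group 200 ug of IgG, the anti-PD-1 group 200 ug of anti-PD-1, the anti-PSGL-1 group 200 ug of anti-PSGL-1, and the combination group 200 ug of each of the latter. PD-1 is an inhibitory receptor of T cells and PSGL-1 a selectin ligand of leukocytes. Each group was 1 library, and the labels do not say how many mice were pooled, so differences between groups were not tested and carry no replicate check. Every interval given is a 95% interval for counting error only.

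The libraries held between 4614 and 9733 barcodes and between 40913129 and 53303195 UMIs, and 24487 cells were kept. Median UMIs per kept cell were 3674.5 with IgG, 6252 with anti-PD-1, 6164 with anti-PSGL-1 and 8392 with the combination, and 4 values in a row follow this order below. Summed melanoma markers were at 11.7 to 25.1 CPM and mitochondrial genes at 2.32% to 2.58% of UMIs over all kept cells. Any 2 libraries shared 5 to 12 barcodes among the kept cells. Cells were clustered with the 36 genes left out, giving 27 clusters and 13 named classes. T cell clusters that met no class rule were pooled as remaining T cells (other T in the plots), with 446, 219, 395 and 101 cells. With them, 7 classes had at least 100 cells in each library. A cluster that mixed T cell and myeloid genes stayed unnamed and held 12.6%, 0.0996%, 0.739% and 0.189% of kept cells, and a second unnamed cluster, led by S100a9, S100a8 and Ace, held 1.03%, 1.69%, 2.50% and 2.98%. A level is the gene's CPM in the summed UMIs of its class, and a ratio between libraries was counted when the gene reached 50 CPM in either of them and differed by 1.5-fold or more. A gene far below 50 CPM in 1 library could enter a count only through the library where it was high, so such genes are named and the main counts are also given with the floor set on the mean of both libraries, a setting chosen after seeing the data. Of the 36 genes, 31 reached 50 CPM in some class and library of at least 100 cells; P4ha2, Adm, Gys1, Pfkfb4 and Pdk1 did not, with highest levels of 11.6, 22.03, 38.6, 47.7 and 49.6 CPM.

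Promoter sequences are shown for 7 of the genes because their levels carry the contrasts described below: Egln3, Ero1l, Hilpda, Slc2a1 and Bnip3 separate macrophage clusters and neutrophil-like cells from the rest, Ldha separates the CD8 clusters, and Pgk1 was low throughout 1 library. Each is the RefSeq sequence of the 250 bases before a transcription start in GRCm38.p6 (mm10), 5′ to 3′ on the gene's strand. Capitals mark the letters ACGTG or GCGTG, the core that HIF binds, on either strand, so that a match on the other strand reads CACGT or CACGC. Hilpda and Ldha each have 2 starts, and the start with more matches is shown. The first start of Hilpda has no match, and the second start of Ldha has 1. The windows are chr12:54203875-54204124, minus strand for Egln3, chr14:45318573-45318822, minus strand for Ero1l, chr6:29272376-29272625, plus strand for the second start of Hilpda, chr4:119108495-119108744, plus strand for Slc2a1, chr7:138909507-138909756, minus strand for Bnip3, chr7:46845554-46845803, plus strand for the first start of Ldha, and chrX:106186850-106187099, plus strand for Pgk1.
Egln3: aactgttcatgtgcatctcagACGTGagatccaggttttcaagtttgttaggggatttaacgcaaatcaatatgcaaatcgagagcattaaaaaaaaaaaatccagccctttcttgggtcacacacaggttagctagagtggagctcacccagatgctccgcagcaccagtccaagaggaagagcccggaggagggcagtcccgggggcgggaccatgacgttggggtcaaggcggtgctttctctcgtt
Ero1l: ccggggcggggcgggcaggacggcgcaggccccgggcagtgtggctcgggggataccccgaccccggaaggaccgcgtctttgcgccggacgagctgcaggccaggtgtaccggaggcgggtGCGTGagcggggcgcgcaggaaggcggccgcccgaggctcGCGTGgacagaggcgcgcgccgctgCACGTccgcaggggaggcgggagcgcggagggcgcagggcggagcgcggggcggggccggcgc
Hilpda: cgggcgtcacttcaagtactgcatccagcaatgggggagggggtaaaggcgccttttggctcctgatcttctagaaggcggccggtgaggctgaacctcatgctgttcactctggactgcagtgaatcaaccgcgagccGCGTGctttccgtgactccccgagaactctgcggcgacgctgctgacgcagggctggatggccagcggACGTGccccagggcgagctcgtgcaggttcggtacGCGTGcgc
Slc2a1: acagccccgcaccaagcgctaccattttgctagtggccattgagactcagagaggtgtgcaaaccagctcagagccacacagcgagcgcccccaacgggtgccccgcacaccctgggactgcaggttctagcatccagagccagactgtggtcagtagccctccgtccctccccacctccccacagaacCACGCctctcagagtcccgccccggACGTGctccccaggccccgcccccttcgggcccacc
Bnip3: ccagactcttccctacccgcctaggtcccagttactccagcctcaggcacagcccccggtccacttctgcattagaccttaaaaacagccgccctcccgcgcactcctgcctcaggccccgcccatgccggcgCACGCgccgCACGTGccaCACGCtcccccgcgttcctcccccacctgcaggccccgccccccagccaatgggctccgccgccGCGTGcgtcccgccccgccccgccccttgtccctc
Ldha: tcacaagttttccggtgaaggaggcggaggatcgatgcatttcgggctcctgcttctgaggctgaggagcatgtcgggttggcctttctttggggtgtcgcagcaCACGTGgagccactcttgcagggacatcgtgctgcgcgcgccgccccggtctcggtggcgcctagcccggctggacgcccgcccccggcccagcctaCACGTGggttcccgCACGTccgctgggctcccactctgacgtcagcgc
Pgk1: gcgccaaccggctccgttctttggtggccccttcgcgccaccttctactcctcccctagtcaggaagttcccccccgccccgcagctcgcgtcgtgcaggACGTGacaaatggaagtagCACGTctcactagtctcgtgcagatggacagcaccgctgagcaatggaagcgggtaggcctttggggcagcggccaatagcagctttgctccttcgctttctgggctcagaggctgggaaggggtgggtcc

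ACGTG was present in the promoter of 19 of the 33 genes with a RefSeq entry (57.6%), against 18.5% of 27025 genes. GCGTG was present in 22 of the 33 (66.7%), against 30.9%, and either core in 29 (87.9%), against 41.5%. Here and below, a gene was counted when any of its starts had a match. Counted per start, ACGTG was in 45.7% of 46 promoters, GCGTG in 52.2% and either in 73.9%. Over all 32851 promoters these shares were 16.6%, 28.2% and 38.6%. The cores can overlap each other on opposite strands, and a match describes these letters in this window only. Slc2a3, Bnip3l and Ndrg1 had no entry and were not searched.

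The genes fell into a few patterns across cell classes, with myeloid cells at the top for most of them; class means below are over the libraries with at least 20 cells of the class. Neutrophil-like cells had the highest mean for 16 genes, macrophage-like cells for 13, regulatory T-like cells for Hk1 and Ldha, cDC1-like cells for Pfkp, conventional CD4 T-like cells for Hif1a and migratory dendritic-like cells for Pfkfb3. P4ha2 and Ddit4 were highest in mast- or basophil-like cells, a class with 23 cells in the single library counted. Many of the lowest means were in B-like, plasmacytoid dendritic-like and migratory dendritic-like cells. These levels describe the classes of 4 libraries and were not tested.

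**Figure D1:**
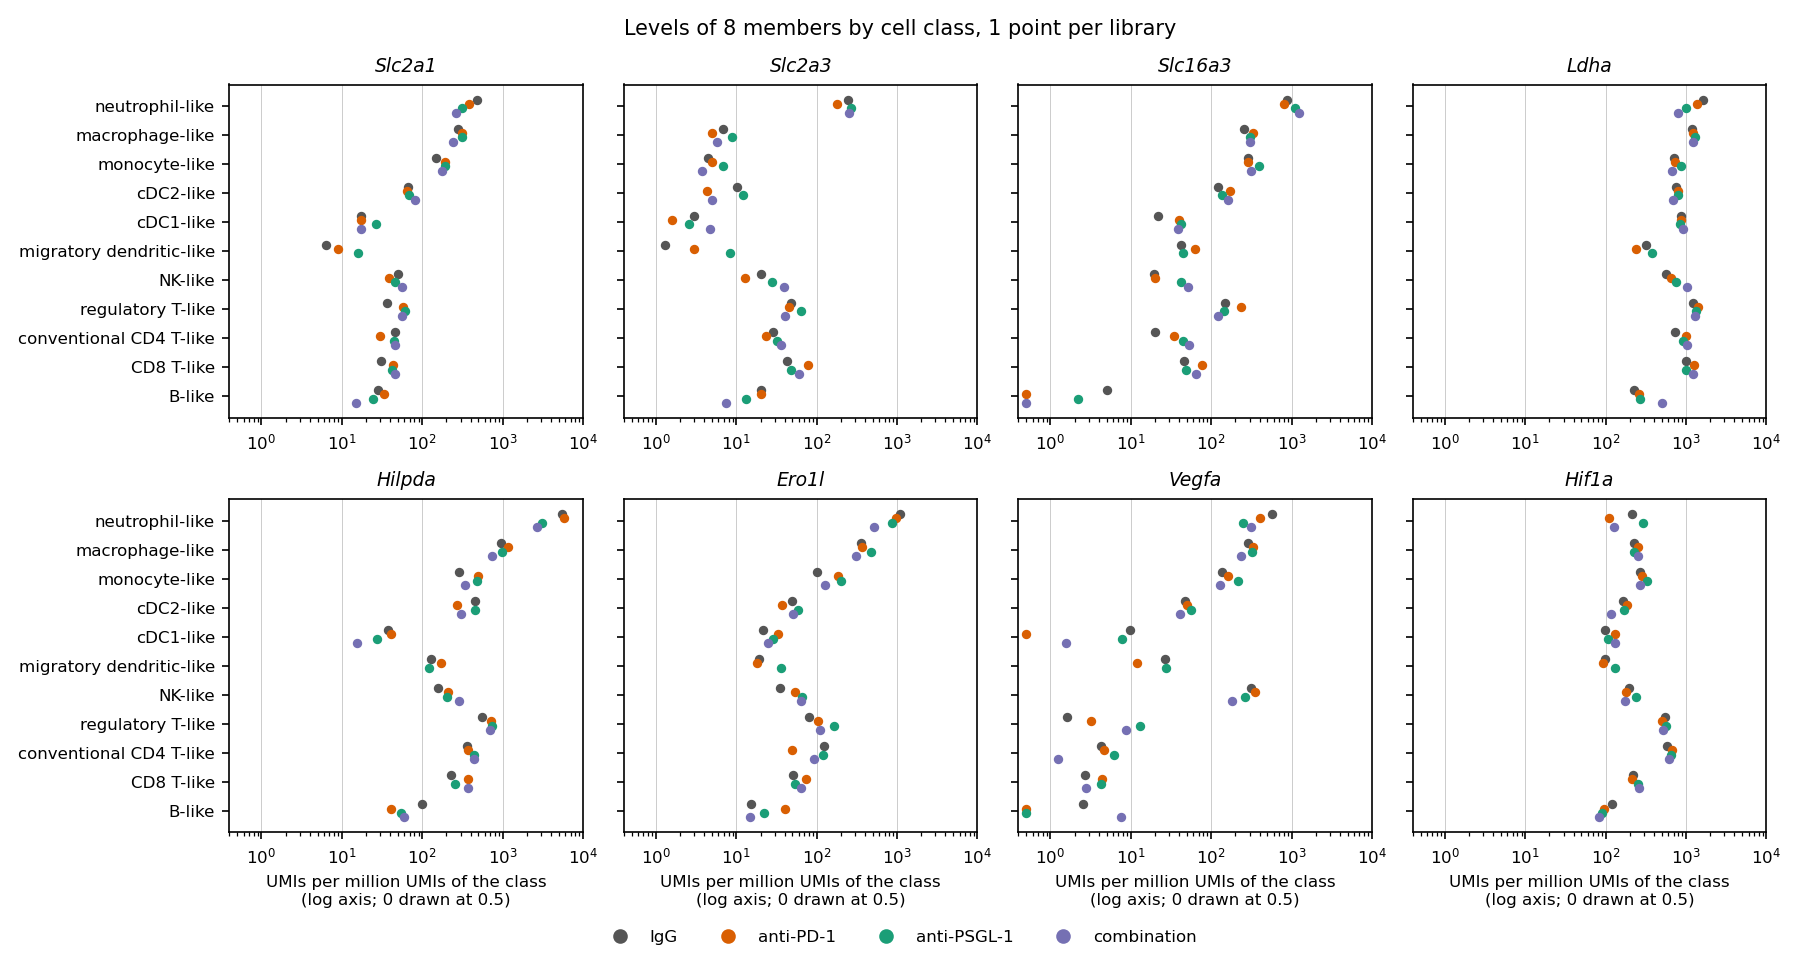
Levels of 8 genes (CPM of the class, log axis, 0 drawn at 0.5) in 11 cell classes, with 1 point for each library that had at least 40 cells of the class. Hilpda, Ero1l, Slc16a3 and Slc2a3 peak in neutrophil-like cells, Vegfa is high in myeloid and NK-like cells and near 3 CPM in CD8 T-like cells, and Hif1a is highest in CD4 T-like cells.

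Among the glucose transporters, Slc2a1 (GLUT1, the widely expressed transporter) averaged 358 CPM in neutrophil-like, 288 CPM in macrophage-like and 177 CPM in monocyte-like cells, and 10.4 CPM in migratory dendritic-like cells. Slc2a3 (GLUT3, a high-affinity transporter) was split differently: it averaged 237 CPM in neutrophil-like and 57.0 CPM in CD8 T-like cells, and was lowest in cDC1-like cells at 2.95 CPM. Macrophage-like cells had 6.84, 5.01, 8.77 and 5.78 CPM of Slc2a3. Macrophage-like cells thus held Slc2a1 with little Slc2a3, and in CD8 T-like cells both were present, at 30.3 to 45.5 CPM for Slc2a1 and 42.5 to 78.2 CPM for Slc2a3. Slc16a3 (MCT4, which exports lactate) averaged 1012 CPM in neutrophil-like cells, 321 CPM in monocyte-like and 301 CPM in macrophage-like cells, and 1.82 CPM in B-like cells. Regulatory T-like cells stood apart from the other lymphocytes for Slc16a3, at 147, 235, 144 and 120 CPM, when conventional CD4 T-like cells had 19.8, 34.9, 44.2 and 52.8 CPM.

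Of the upper glycolytic enzymes, Gpi1, Aldoa and Tpi1 were highest in macrophage-like cells, at means of 655, 1435 and 958 CPM, and lowest in B-like cells, at 188, 331 and 116 CPM. Both hexokinases that trap glucose in the cell differed by class: Hk2 averaged 306 CPM in neutrophil-like and 152 CPM in macrophage-like cells against 9.72 CPM in migratory dendritic-like cells, and Hk1 averaged 72.3 CPM in regulatory T-like cells against 8.17 CPM in plasmacytoid dendritic-like cells. For phosphofructokinase, the committing step, Pfkl averaged 158 CPM in neutrophil-like cells and 32.5 CPM in the remaining T cells, and Pfkp 506 CPM in cDC1-like, 300 CPM in cDC2-like and 40.1 CPM in B-like cells. In the lower part of the pathway Gapdh, Pgk1, Pgam1, Eno1 and Pkm were all highest in macrophage-like cells. Gapdh averaged 3046 CPM there, followed by regulatory T-like cells at 2457 CPM and CD8 T-like cells at 2382 CPM, and 465 CPM in B-like cells. Pgk1 ranged from 123 CPM in macrophage-like to 10.97 CPM in B-like cells, and Eno1 from 713 CPM to 92.9 CPM in plasmacytoid dendritic-like cells. Pkm ranged from 1536 CPM to 204 CPM in B-like cells, and Pgam1 from 757 CPM to 142 CPM in B-like and 70.6 CPM in mast- or basophil-like cells. Ldha, which makes lactate, averaged 1320 CPM in regulatory T-like, 1233 CPM in macrophage-like and 1204 CPM in neutrophil-like cells, and 311 CPM in migratory dendritic-like cells. The ranges of the first 3 of these classes over libraries overlapped.

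The regulators were sparse. Pfkfb3, which makes the activator of phosphofructokinase, averaged 165 CPM in migratory dendritic-like, 141 CPM in neutrophil-like and 88.8 CPM in macrophage-like cells, and 7.06 CPM in plasmacytoid dendritic-like cells. Pfkfb4, of the same family, was highest in neutrophil-like cells at 41.7 CPM, and Gys1, glycogen synthase, in macrophage-like cells at 32.2 CPM. Pdk1, the kinase that keeps pyruvate out of mitochondria, averaged 38.7 CPM in neutrophil-like and 8.45 CPM in migratory dendritic-like cells.

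Hif1a had another order of classes than most of the hypoxia genes. It averaged 629 CPM in conventional CD4 T-like cells, where the 4 libraries had 586, 663, 647 and 620 CPM, and 534 CPM in regulatory T-like cells, against 285 CPM in monocyte-like cells and 96.6 CPM in B-like cells. Egln3, an oxygen sensor that is itself HIF-induced, averaged 274 CPM in neutrophil-like cells, 84.7 CPM in macrophage-like cells and 0.252 CPM in cDC1-like cells. Egln1, the main oxygen sensor, varied less, from 140 CPM in macrophage-like and 128 CPM in regulatory T-like cells to 29.98 CPM in B-like cells. Kdm3a, a histone demethylase, averaged 119 CPM in neutrophil-like and 5.53 CPM in plasmacytoid dendritic-like cells.

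Neutrophil-like cells held the highest levels of most of the remaining hypoxia genes. Hilpda, a lipid droplet protein that restrains fat breakdown, had 5549, 5788, 3093 and 2661 CPM in them and 945, 1153, 972 and 739 CPM in macrophage-like cells, so that the lowest neutrophil-like library was above the highest macrophage-like one. Ero1l, the oxidase that drives disulfide formation in the endoplasmic reticulum, averaged 856 CPM in neutrophil-like, 378 CPM in macrophage-like and 8.17 CPM in plasmacytoid dendritic-like cells. Bnip3 and Bnip3l, mitophagy receptors, averaged 485 and 568 CPM in neutrophil-like cells, against 223 CPM in macrophage-like cells for Bnip3 and 201 CPM in conventional CD4 T-like cells for Bnip3l. The lowest means were 17.5 CPM for Bnip3, in conventional CD4 T-like cells, and 53.0 CPM for Bnip3l, in mast- or basophil-like cells. Higd1a, a mitochondrial protein induced by low oxygen, averaged 328 CPM in macrophage-like and 269 CPM in neutrophil-like cells. P4ha1, a collagen prolyl hydroxylase, averaged 322 CPM in neutrophil-like and 129 CPM in macrophage-like cells, and P4ha2, of the same family, did not pass 11.6 CPM in a class of at least 100 cells. Neutrophil-like cells were also shallow, with median depths of 1313.5 to 2187 UMIs per cell, and numbered 448, 53, 243 and 95.

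Vegfa, the angiogenic growth factor, averaged 386 CPM in neutrophil-like, 294 CPM in macrophage-like and 279 CPM in NK-like cells, and 2.50 CPM in B-like cells. In CD8 T-like cells it was at 2.69, 4.36, 4.25 and 2.79 CPM. After each cell was thinned to 2000 UMIs, 40.2%, 44.6%, 36.5% and 26.6% of NK-like cells and 0.452%, 0.621%, 0.80% and 0.408% of CD8 T-like cells had a Vegfa UMI; without thinning the shares were 45.1%, 59.4%, 56.9% and 58.0%, and 1.44%, 4.55%, 2.99% and 2.71%, at median depths of 2490, 3513, 4738 and 5873 and of 4814, 10100, 7471 and 10823 UMIs. The thinned NK-like shares rest on 600, 484, 405 and 244 cells. NK-like and CD8 T-like cells thus differed in Vegfa far beyond counting error in each library. Mif, a secreted cytokine, averaged 1464 CPM in neutrophil-like and 1241 CPM in macrophage-like cells, and Adm, a vasodilator peptide, did not exceed 22.03 CPM in any class of at least 100 cells. Ndrg1, a growth-arrest gene, averaged 277 CPM in macrophage-like, 261 CPM in migratory dendritic-like and 1.18 CPM in B-like cells. Ddit4, an mTORC1 inhibitor, averaged 288 CPM in regulatory T-like, 95.2 CPM in neutrophil-like and 6.12 CPM in cDC1-like cells.

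Within macrophage-like cells, most of the genes were concentrated in 1 cluster, led by Arg1, Ccl7 and Nos2. It held 33.0%, 38.2%, 34.95% and 25.7% of the class, and the other macrophage-like cells formed a cluster led by Ccl7 and C1qa and a smaller cluster led by Ccl8. Hilpda had 2307, 2362, 2194 and 2062 CPM in the Arg1-led cluster, 456, 594, 485 and 395 CPM in the Ccl7-led cluster and 142, 313, 126 and 149 CPM in the Ccl8-led cluster. Ero1l had 947, 839, 1145 and 987 CPM, then 114, 146, 181 and 125.2 CPM, then 92.9, 106, 119 and 87.3 CPM in the same order of clusters. The groups of values do not overlap between the Arg1-led cluster and either of the others for Hilpda or Ero1l.

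Against the other macrophage-like clusters together, 28 of 32, 25 of 31, 26 of 31 and 27 of 31 genes tested were higher by 1.5-fold or more in the Arg1-led cluster, and none was lower. The background was 14.2%, 13%, 14.4% and 14.2% of all genes tested higher and 32%, 25.4%, 29.4% and 30.5% lower. The median log2 ratio over the genes tested was 1.22, 0.88, 1.21 and 1.23, against -0.28, -0.21, -0.21 and -0.23 over all genes. With the floor on the mean of both sides, 24 of 28, 22 of 28, 24 of 29 and 25 of 29 were higher, where 13.1%, 11.7%, 13.2% and 13.0% of all genes were; Egln3, Ddit4 and Gys1 entered the counts only through the Arg1-led cluster in each library. Of 30 genes tested in all 4 libraries, 24 were higher in all 4, among them Egln3, Ddit4 and Gys1. The share of all genes higher in all 4 was not computed, so this count has no background of its own. The widest contrasts among these 30, as ranges of the ratio over libraries, were 8.95 to 12.1 for Egln3, 5.92 to 8.66 for Ero1l, 2.85 to 11.1 for Ddit4, 4.19 to 5.89 for Hilpda, 3.51 to 5.69 for Ndrg1, 3.44 to 5.28 for Slc2a1, 3.02 to 4.40 for Bnip3 and 3.08 to 3.83 for Vegfa. Adm, which reached 50 CPM only in the Arg1-led cluster of the IgG library, had ratios of 16.1 to 26.97. Enzymes of the pathway differed by less, such as Gpi1 at 2.07 to 2.72, Aldoa at 1.75 to 2.34, Gapdh at 1.66 to 2.03 and Ldha at 1.57 to 1.77. Another 6 of the 30 genes were not past 1.5-fold in all 4 libraries: Pfkl at 1.21 to 1.63, Pgam1 at 1.499 to 1.80, Pkm at 1.20 to 1.35, Hif1a at 0.93 to 1.23, Slc16a3 at 0.85 to 1.12 and Pfkp at 0.82 to 1.16. Hif1a transcript and the lactate exporter Slc16a3 were thus at like levels in these clusters while Ero1l and Hilpda were several-fold apart.

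**Figure D2:**
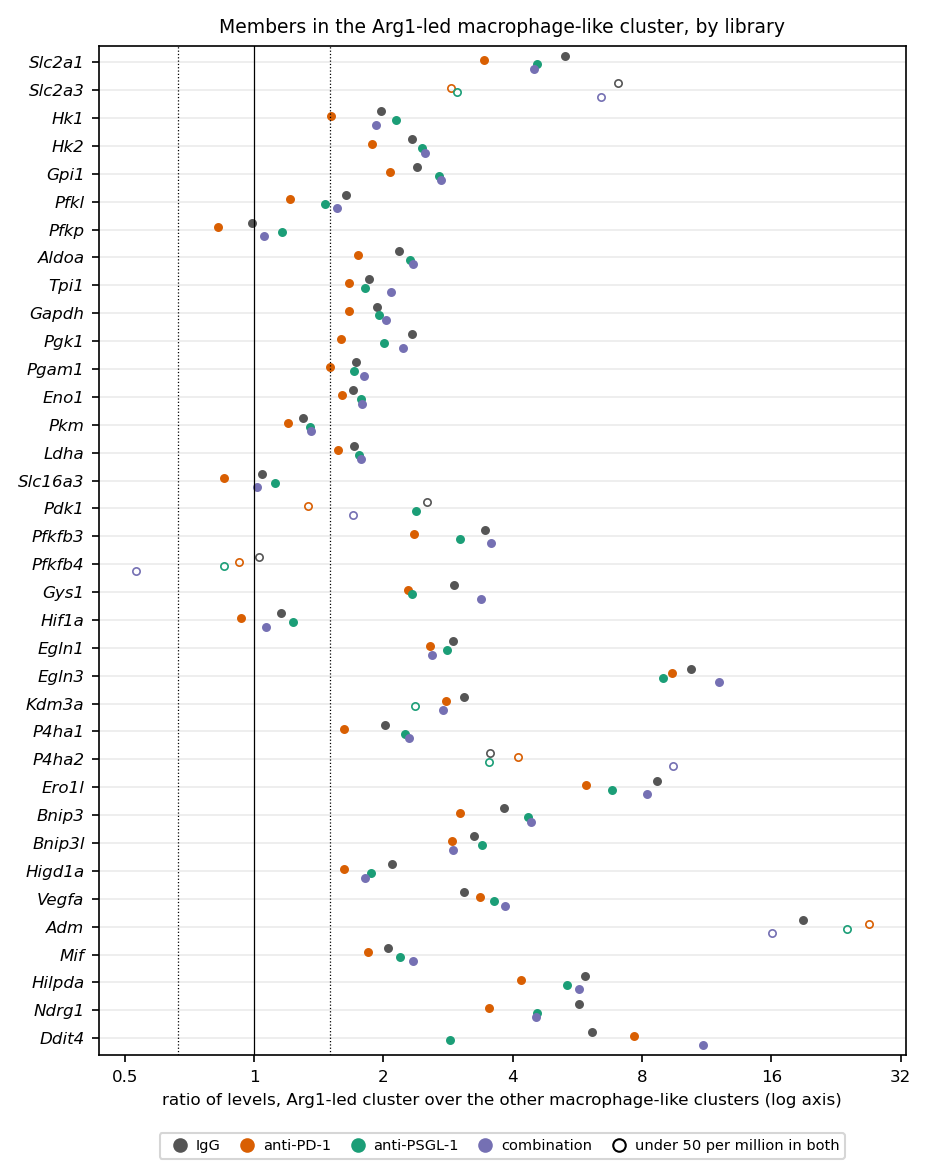
Ratio of the level in the Arg1-led macrophage-like cluster to that in the other macrophage-like clusters (log axis) for the 36 genes, with 1 point per library and open points where the gene was under 50 CPM on both sides. Dotted lines stand at 1.5-fold; Egln3, Ero1l, Hilpda and Slc2a1 lie far to the right in all 4 libraries, and Hif1a, Pfkp and Slc16a3 lie near 1.

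The clusters were formed from other genes of the same cells, so this contrast is a description. A list of 12 dissociation stress genes moved with it, at 22158, 19991, 16836 and 17024 CPM summed in the Arg1-led cluster against 8738, 9272, 8679 and 8620 CPM in the Ccl7-led and 5678, 5850, 5076 and 4919 CPM in the Ccl8-led cluster; its part in the contrast was not tested. The sum of 10 melanoma markers was 18.4, 27.3, 13.5 and 17.8 CPM in the Arg1-led cluster and 6.27, 20.9, 6.17 and 17.0 CPM in the Ccl7-led cluster. In the Ccl8-led cluster it was 618, 63.9, 152 and 64.9 CPM. The Arg1-led cluster was thus above the Ccl7-led and below the Ccl8-led cluster in each library, and the part of these markers in the contrast was not tested. Of the 24 genes higher in all 4 libraries, 22 had a promoter entry and 18 of these held ACGTG or GCGTG (81.8%), and of the 6 others all 6 did, so the letters did not separate the groups. Across macrophage-like cells thinned to 2000 UMIs, the summed UMIs of 13 glycolysis genes and of the other 23 genes correlated with Pearson r of 0.69, 0.70, 0.75 and 0.71 over 1363, 1673, 1384 and 956 cells that share their library.

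Pgk1 and Eno1 were low in nearly every class of the anti-PD-1 library, unlike the enzymes next to them in the pathway. Pgk1, phosphoglycerate kinase, had 150, 38.3, 173 and 131 CPM in macrophage-like, 77.7, 28.4, 88.4 and 96.5 CPM in CD8 T-like and 67.5, 19.6, 66.2 and 56.0 CPM in cDC2-like cells. Eno1, enolase, had 801, 370, 935 and 748 CPM in macrophage-like and 425, 275, 455 and 550 CPM in CD8 T-like cells. In each of these classes the anti-PD-1 library was the lowest of the 4.

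Over the 7 classes with at least 100 cells in each library, the ratio of anti-PD-1 to IgG ran from 0.25 to 0.95 for Pgk1, with a median of 0.31, and from 0.46 to 0.70 for Eno1, with a median of 0.49, and 6 of the 7 classes were past 1.5-fold for either gene, counted without the 50 CPM floor. Gapdh, which acts just before Pgk1, was above 1 in all 7 classes, at 1.15 to 2.15, and so were Tpi1 at 1.09 to 2.36, Pgam1, which acts between Pgk1 and Eno1, at 1.03 to 1.48, and Ldha at 1.03 to 1.59. The combination library, which also received anti-PD-1, was above the anti-PD-1 library in all 7 classes, by 1.72 to 5.87 for Pgk1 and 2.00 to 3.11 for Eno1. Among 1641 genes tested in all 7 classes, 9 were lower by 1.5-fold or more in each class of the anti-PD-1 library against IgG, among them Rpl35, Gstp1 and Snrpg, which are no members of the pathway. Both genes have near-identical copies in the genome. Over all kept cells, Eno1 and its copy Eno1b summed to 493, 284, 592 and 576 CPM, and Pgk1 and its copy Pgk1-rs7 to 87.4, 29.95, 111 and 97.8 CPM, and the copies made up 0.628% to 0.846% and 1.30% to 2.71% of the sums. With these copies added, the sums were still lowest in the anti-PD-1 library; other copies were not counted. How reads that match several places were treated in each library is not given in the sources used here, and its part was not tested.

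**Figure D3:**
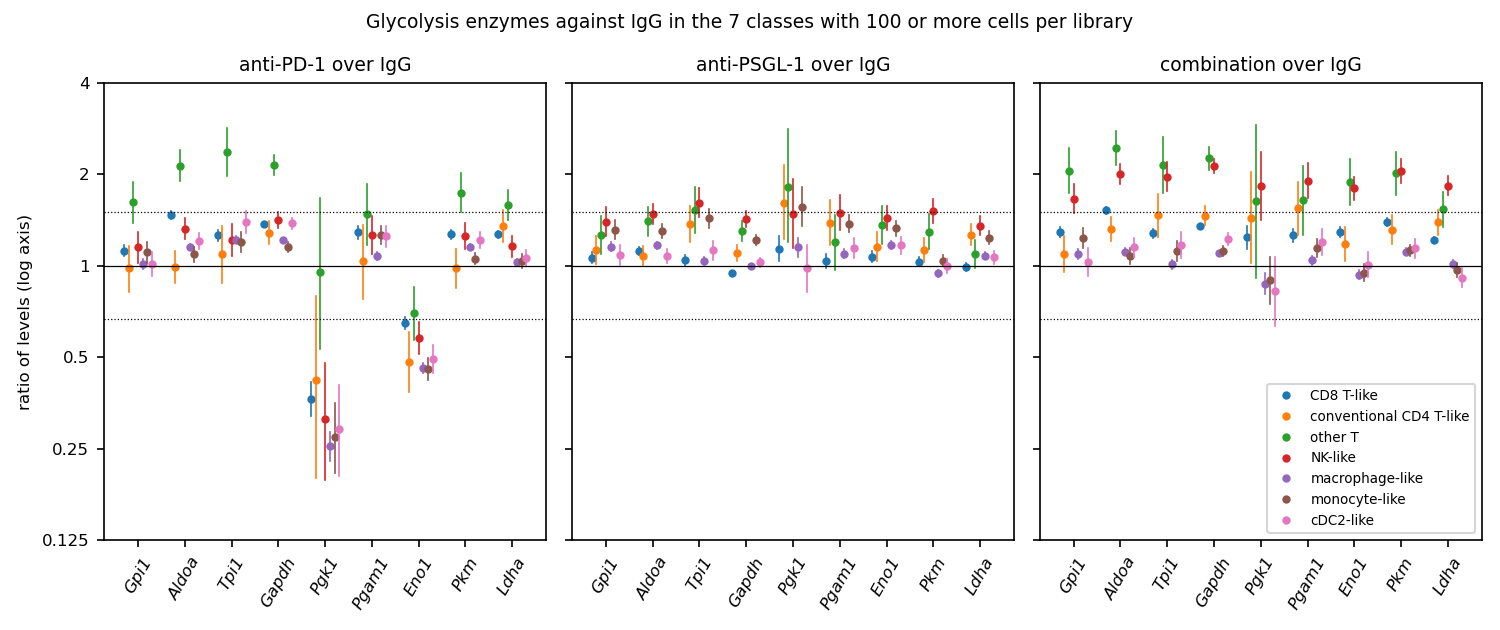
Ratio of levels in each treated library to IgG (log axis) for 9 enzymes from Gpi1 to Ldha in pathway order, with 1 point per cell class and bars for the 95% counting interval. Pgk1 and Eno1 drop below the dotted 1.5-fold line in the anti-PD-1 panel in 6 of 7 classes each, and the enzymes around them lie at or above 1 in most classes.

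In NK-like cells the glycolysis enzymes were higher in the combination library than in IgG. Gapdh had 864, 1220, 1232 and 1841 CPM, Aldoa 491, 650, 728 and 984 CPM, and Pkm, pyruvate kinase, 337, 423, 510 and 692 CPM. Ldha had 561, 650, 759 and 1029 CPM and Slc16a3 19.3, 20.3, 42.0 and 52.2 CPM. For each of these genes the IgG library was the lowest and the combination library the highest. Summed over 13 glycolysis genes the NK-like levels were 3486, 4162, 5025 and 6703 CPM. The median depth of NK-like cells rose in the same order of libraries, at 2490, 3513, 4738 and 5873 UMIs, and the part of depth was not tested.

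In the combination library, 14 of 22 genes tested in NK-like cells were higher than in IgG by 1.5-fold or more, where the background was 4.95%. Slc16a3 was at 19.3 CPM in IgG and entered only through the combination; with the floor on the mean of both libraries, 12 of 20 genes were higher, where 4.44% of all genes were. The median log2 ratio over the genes tested was 0.79, against -0.04 over all genes. The ratio was 2.13 (interval 2.02 to 2.25) for Gapdh, 2.05 (1.88 to 2.25) for Pkm, 2.70 (1.87 to 3.95) for Slc16a3, 2.01 (1.86 to 2.16) for Aldoa, 1.97 (1.76 to 2.20) for Tpi1 and 1.84 (1.71 to 1.97) for Ldha. Hilpda, at 158, 207, 202 and 288 CPM, had a ratio of 1.82 (1.59 to 2.09). Vegfa was the only gene tested that was lower, at 317, 349, 265 and 183 CPM and a ratio of 0.576 (0.505 to 0.657), where 8.93% of all genes were lower. Hif1a, at 195, 178, 239 and 175 CPM, Bnip3l, at 176, 162, 161 and 161 CPM, and Higd1a, at 192, 214, 252 and 210 CPM, did not pass 1.5-fold. The enzymes and Hilpda were thus higher and Vegfa lower in the same cells of the same library.

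**Figure D4:**
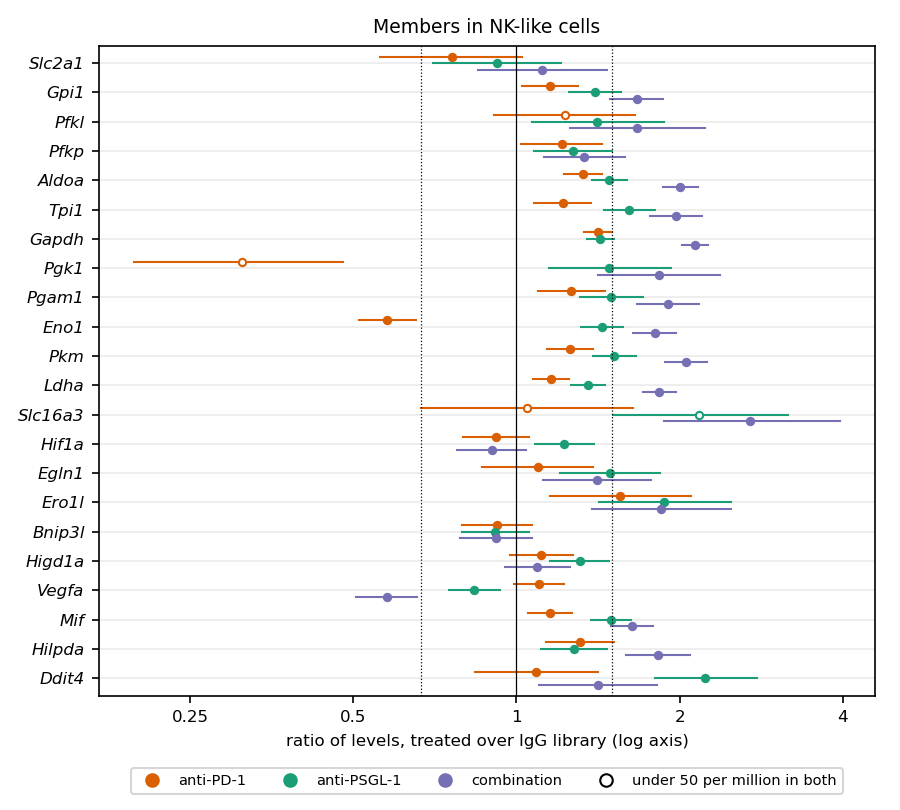
Ratio of levels in each treated library to IgG (log axis) in NK-like cells for the 22 genes tested in the combination library, with 95% counting intervals and open points where both libraries were under 50 CPM. Purple points (combination) lie beyond 1.5-fold for most enzymes, from Gapdh at 2.13 to Gpi1 at 1.67, and Vegfa lies at 0.576.

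Against IgG, the anti-PSGL-1 library had 4 of 22 genes higher in NK-like cells, against a background of 3.57%: Ddit4 at 2.23 (1.80 to 2.77), Ero1l at 1.87 (1.42 to 2.49), Tpi1 at 1.62 (1.45 to 1.80) and Pkm at 1.51 (1.38 to 1.66). None was lower, where 4.8% of all genes were. Pgam1 at 1.497, Mif at 1.49, Egln1 at 1.49, Aldoa at 1.48 and Pgk1 at 1.48 were just inside the limit, so that the count rests on small differences, and it was 3 of 18 with the floor on the mean. The anti-PD-1 library had 1 of 20 genes higher, Ero1l at 1.55 (1.15 to 2.10), where the background was 1.73%, and 1 lower, Eno1 at 0.578, where it was 1.67%. Compared with the anti-PD-1 library directly, 9 of 23 genes were higher in the combination, against 5.31%, among them Pgk1 at 5.87 (3.90 to 9.13), Eno1 at 3.11 (2.78 to 3.48), Slc16a3 at 2.58 (1.77 to 3.81), Tpi1 at 1.62 (1.45 to 1.80), Pkm at 1.64 (1.499 to 1.79) and Ldha at 1.58 (1.48 to 1.70). Pgk1 and Slc16a3 entered only through the combination, and with the floor on the mean 7 of 20 were higher (4.26%). Pgk1 and Eno1 were past 1.5-fold in this comparison in all 7 classes, counted without the 50 CPM floor, and so were not particular to NK-like cells. Vegfa was the 1 gene lower in that comparison, against 10.1%, at 0.524 (0.459 to 0.597). Compared with the anti-PSGL-1 library, only Ddit4 passed, at 0.634 (0.515 to 0.778) and lower in the combination, where 5.21% of all genes were lower.

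Almost all NK-like cells lay in 1 cluster, with 789, 507, 394 and 239 of the 800, 507, 420 and 245 cells, and within it 15 of 22 genes tested were higher in the combination than in IgG (background 5.14%) and 1 was lower (9.41%). Against the anti-PD-1 library, 6 of 23 genes were higher in the combination within this cluster (3.82%) and 1 was lower (9.51%). Summed cell-cycle genes in NK-like cells were 387, 232, 884 and 583 CPM, dissociation stress genes 4504, 4297, 4213 and 4042 CPM, and erythroid genes 332, 3.95, 0.42 and 0 CPM. The cell-cycle genes were higher in the anti-PSGL-1 and combination libraries. Without cells holding a Mki67 or Top2a UMI, the anti-PSGL-1 count in NK-like cells was 11 instead of 4. It was 10 with ratios centred on the median gene or with each cell weighing the same. The share of all genes past 1.5-fold was not computed under these settings, so these counts have no background of their own.

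CD8 T-like cells differed between libraries in their mixture of clusters. The cluster led by Serpine2 and Tff1 was the largest under IgG and under anti-PSGL-1, with 36.8% and 35.2% of the class against 15.8% and 13.0% under anti-PD-1 and the combination. The cluster led by Serpine2 and Gzmf held 6.13%, 29.9%, 7.18% and 25.8%, the cluster led by Gzmd 1.08%, 15.05%, 0.853% and 13.7%, and the cluster led by Dapl1, with Ccr7 and Il7r among its leading genes, 21.1%, 6.04%, 11.9% and 1.10%. The cluster led by Gzmk and Gzma held 17.4%, 10.6%, 22.6% and 25.5%. The anti-PD-1 and combination libraries thus held more of the Gzmf- and Gzmd-led clusters and less of the Dapl1-led one, and the Gzmk-led cluster was smallest under anti-PD-1 and largest in the combination.

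The genes differed widely between those clusters. Gapdh had 542, 562 and 675 CPM in the Dapl1-led cluster of the first 3 libraries and 3250 and 3073 CPM in the Gzmd-led cluster under anti-PD-1 and the combination. Ldha had 405, 372 and 437 CPM in the former and 1516 and 1444 CPM in the latter. Hilpda had the same order of clusters, from 34.0, 62.1 and 42.7 CPM in the Dapl1-led to 514 and 498 CPM in the Gzmd-led cluster, with 126, 162, 141 and 195 CPM in the Gzmk-led and 279, 238, 331 and 268 CPM in the Serpine2- and Tff1-led cluster. Slc2a3 had 17.5, 16.3 and 14.6 CPM in the Dapl1-led cluster and 143 and 89.1 CPM in the Gzmd-led one. The libraries within a cluster differed by less than the Dapl1-led and Gzmd-led clusters did from each other for all 4 genes.

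**Figure D5:**
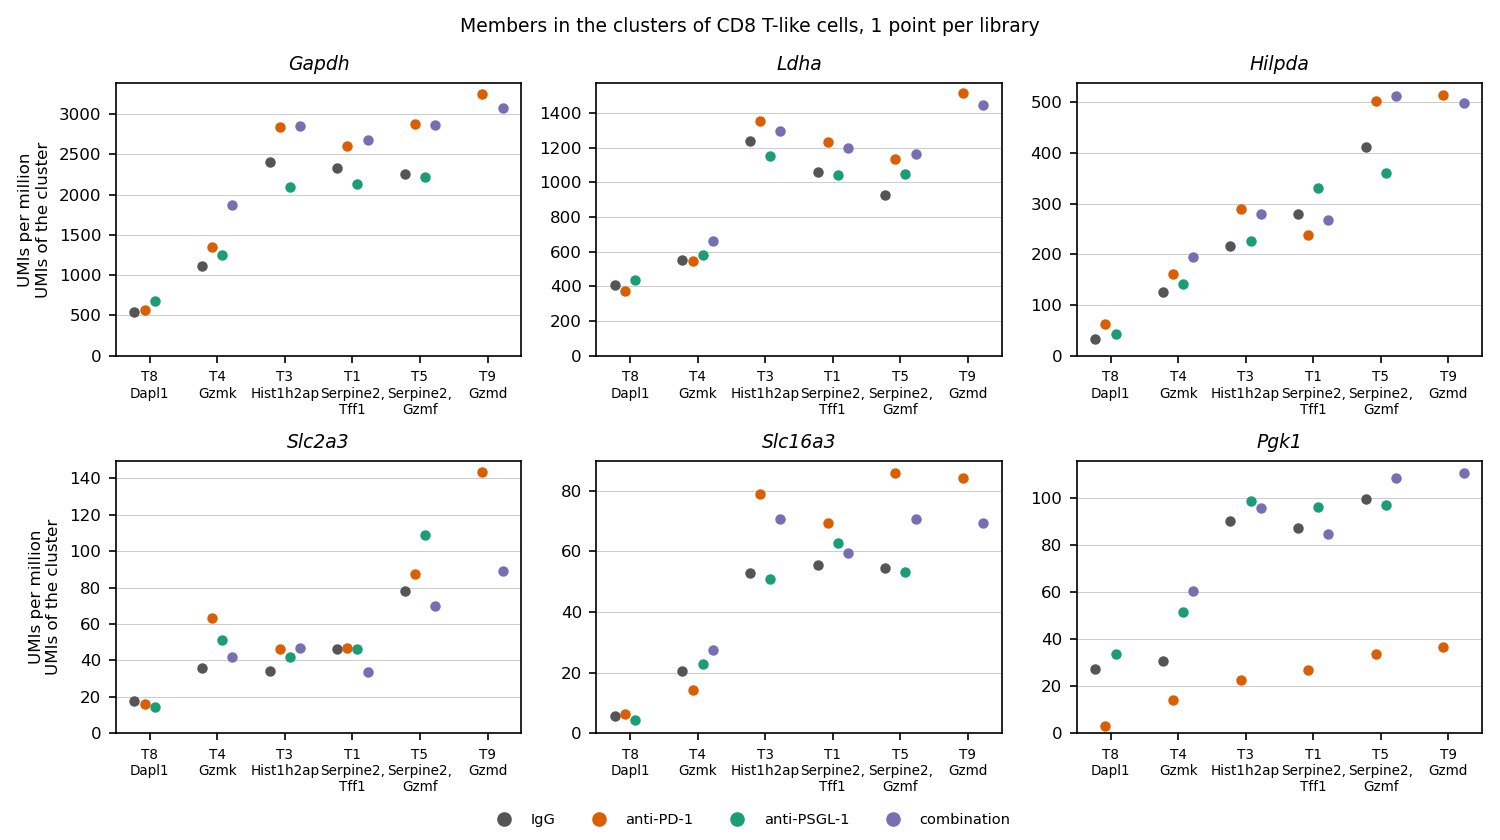
Levels of 6 genes (CPM of the cluster) in the 6 clusters of CD8 T-like cells, labelled with a leading gene, with 1 point for each library that had enough cells of the cluster. Gapdh, Ldha and Hilpda climb from the Dapl1-led to the Gzmd-led cluster, and Pgk1 lies lowest in the anti-PD-1 library in each cluster.

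Over all CD8 T-like cells, 3 of 21 genes tested were higher by 1.5-fold or more in the anti-PD-1 library than in IgG, against a background of 3.11%. Slc2a3, at 42.5, 78.2, 47.8 and 59.5 CPM, had a ratio of 1.84 (1.63 to 2.07), Slc16a3, at 45.3, 76.5, 48.3 and 63.9 CPM, 1.69 (1.501 to 1.90), and Hilpda, at 228, 376, 256 and 371 CPM, 1.65 (1.57 to 1.74). The anti-PD-1 and combination libraries were the higher pair for all 3. Lower were Pgk1 at 0.365 (0.321 to 0.415) and Eno1 at 0.646 (0.617 to 0.676), where 2.72% of all genes were lower, and no other member was. The anti-PSGL-1 library had 1 of 18 genes higher, Ddit4 at 1.63 (1.48 to 1.80) with levels of 66.3, 73.4, 108 and 58.4 CPM, against 0.807%. Hilpda and Aldoa were the 2 of 22 genes higher in the combination, against 3.83%. Between treated libraries, Pgk1 at 3.40 (3.04 to 3.81) and Eno1 at 2.00 (1.93 to 2.08) were higher in the combination than under anti-PD-1, against 1.46%, with none lower (1.14%). Pgk1 was at 28.4 CPM under anti-PD-1. It thus entered this comparison only through the combination, and the count of lower genes above only through IgG. Ddit4 at 0.54 (0.50 to 0.583) was lower in the combination than under anti-PSGL-1, against 3.64%, with none higher (4.03%). The median log2 ratio over the genes tested was 0.33, 0.10 and 0.34 for anti-PD-1, anti-PSGL-1 and the combination against IgG, and over all genes 0.04, -0.05 and 0.06. Without cells holding a Mki67 or Top2a UMI, 6 genes were higher under anti-PD-1 and 5 under the combination, and the share of all genes was not computed for this setting.

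Inside the clusters the differences from IgG were uneven. Against IgG, the Serpine2- and Tff1-led cluster had 0 of 20 genes higher in the anti-PD-1 library, where the background was 2.76%, and 0 of 20 in the combination, where it was 3.54%. The Serpine2- and Gzmf-led cluster had 1 of 21 (4.95%) and 1 of 22 (4.64%). In the Gzmk-led cluster, 2 of 17 genes were higher in the anti-PD-1 library (8.25%), Slc2a3 and P4ha1, and 5 of 16 in the combination (5.42%), Gapdh, Pgk1, Aldoa, Pkm and Hilpda. The median log2 ratio of the combination to IgG in this cluster was 0.39, against 0.34 over the whole class. P4ha1 and Pgk1 entered only through the treated library, and with the floor on the mean 0 of 15 and 4 of 15 genes were higher there, where 6.05% and 4.1% of all genes were.

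In conventional CD4 T-like cells, the anti-PD-1 library had 5 of 21 genes lower than IgG and none higher, against backgrounds of 6.32% and 6.81%. Besides Pgk1 and Eno1 these were Ero1l, at 122, 48.9, 120 and 92.99 CPM with a ratio of 0.40 (0.24 to 0.636), Pfkp at 0.631 (0.446 to 0.877) and Egln1 at 0.641 (0.433 to 0.927). This library had 121 such cells, and the Pfkp and Egln1 intervals came close to 1. In the anti-PSGL-1 library Ddit4 at 1.62 (1.18 to 2.25), Pgk1 at 1.61 (1.22 to 2.14) and Higd1a at 1.51 (1.29 to 1.76) were higher, against 2.81%, and in the combination Slc16a3 at 2.67 (1.57 to 4.65) and Pgam1 at 1.55 (1.26 to 1.89), against 4.49%; Slc16a3 entered only through the combination. Compared with the anti-PD-1 library, the combination had 5 of 22 genes higher, against 6.58%, again with Eno1 at 2.44 (1.94 to 3.09), Pgk1 at 3.44 (1.81 to 7.20) and Ero1l at 1.90 (1.16 to 3.25). Pgk1 was at 25.6 CPM under anti-PD-1. It thus entered this comparison only through the combination, and the one of anti-PD-1 with IgG only through IgG. Hk2 at 0.554 (0.352 to 0.844) was lower and Pfkl at 1.52 (1.04 to 2.20) higher in the combination than under anti-PSGL-1, against 3.97% and 6.23%.

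Regulatory T-like cells had fewer than 100 cells in the combination library and were compared for the single antibodies only. Against IgG the anti-PD-1 library had 3 of 25 genes higher, against 4.62%: Ndrg1, at 42.0, 78.7, 58.5 and 36.9 CPM with a ratio of 1.87 (1.37 to 2.55), Slc2a1 at 1.62 (1.13 to 2.29) and Slc16a3 at 1.59 (1.34 to 1.89). In the anti-PSGL-1 library 3 of 26 were higher, against 2.21%: Ero1l, at 79.5, 103, 163 and 109 CPM with a ratio of 2.05 (1.71 to 2.45), Slc2a1 at 1.69 (1.28 to 2.24) and Bnip3 at 1.66 (1.30 to 2.12). Slc2a1, at 36.0, 58.2, 60.9 and 56.5 CPM, was higher in each of the treated libraries than in IgG.

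The pooled remaining T cells had 16 of 20 genes higher in the anti-PD-1 library than in IgG (background 7.81%) and 15 of 19 in the combination (11.5%), with none lower (5.7% and 9.15%). With the floor on the mean these were 14 of 18 in each (6.74% and 10.4%), since Slc2a1 and P4ha1, and under anti-PD-1 Slc2a3, were far below 50 CPM in IgG. Summed over the 13 glycolysis genes the levels were 2765, 4986, 3604 and 5645 CPM. The mixture of clusters moved with this: the cluster led by Klra7 made up 88.3%, 62.6%, 77.5% and 49.5% of them and the cluster led by Hspa1a, with dissociation stress genes at 16174 to 19311 CPM against 4205 to 5123 CPM, 10.54%, 31.5%, 17.0% and 39.6%. The largest ratios in the class by their lower bounds were Slc2a3 at 3.78 (2.27 to 6.55) under anti-PD-1 and Ero1l at 4.29 (2.95 to 6.33) in the combination, where Ero1l had 34.7, 81.6, 55.8 and 149 CPM. Under anti-PSGL-1, 4 of 17 were higher (2.3%) and none lower (4.42%). The combination had 9 of 19 genes higher than anti-PSGL-1 (12.6%) and none lower (5.23%), and differed from anti-PD-1 in Eno1 at 2.70 (2.20 to 3.33) and Ero1l at 1.82 (1.32 to 2.52), which were higher (6.62%), and Slc2a3 at 0.571 (0.322 to 0.97), which was lower (5.84%). Inside the Klra7-led cluster, 0 of 15 genes were higher in the anti-PD-1 library, where the background was 6.36%.

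Macrophage-like cells differed little between libraries once Pgk1 and Eno1 were set aside. Hk2, at 124, 200, 153 and 130 CPM, and Pfkfb3, at 77.6, 123, 75.8 and 78.6 CPM, were the 2 of 29 genes higher in the anti-PD-1 library, with ratios of 1.62 (1.504 to 1.75) and 1.59 (1.44 to 1.75), against a background of 9.79%. Pgk1 and Eno1 were the 2 that were lower, against 3.5%. No gene tested passed in the anti-PSGL-1 library, where 1.01% of all genes were higher and 0.708% lower. In the combination Ddit4 was lower, at 54.3, 36.8, 48.3 and 29.8 CPM with a ratio of 0.549 (0.469 to 0.641), against 1.6%; it reached 50 CPM only in IgG, and no gene was lower with the floor on the mean. Against the anti-PD-1 library the combination had lower Hilpda at 0.641 (0.622 to 0.66), Hk2 at 0.651 (0.606 to 0.699) and Pfkfb3 at 0.639 (0.583 to 0.70), where 3.5% of all genes were lower. Against the anti-PSGL-1 library it had lower Higd1a at 0.652 (0.62 to 0.687), Ero1l at 0.657 (0.627 to 0.688) and Egln3 at 0.634 (0.574 to 0.70), where 4.41% were lower. The Arg1-led cluster, which had the highest Hilpda, was also the smaller part of the class in the combination, and inside it 0 of 31 genes tested were lower than in the anti-PD-1 library, where the background was 5.39%. In the Ccl7-led cluster 3 of 26 were lower, against 3.25%: Hk2 at 0.629 (0.57 to 0.695), Pfkfb3 at 0.581 (0.504 to 0.668) and Hilpda at 0.664 (0.631 to 0.699). In the Ccl8-led cluster 3 of 25 were lower, against 8.79%: Hilpda at 0.477 (0.386 to 0.587), Slc16a3 at 0.588 (0.449 to 0.766) and Pfkfb3 at 0.665 (0.442 to 0.991). The lower Hilpda and Pfkfb3 were thus found inside both of these clusters. Against IgG, the Arg1-led cluster itself had no gene of the list higher in any treated library. Of all genes, 11.5% were higher in it under anti-PD-1, 2.05% under anti-PSGL-1 and 5.53% in the combination. Lower in it were Pgk1, Eno1, Adm and Ddit4 of 32 genes under anti-PD-1 (3.26%), Adm and Ddit4 of 33 under anti-PSGL-1 (2.01%), and Adm of 32 in the combination (2.12%). Adm was at 67.4, 26.8, 34.8 and 39.8 CPM, so it entered these counts only through IgG.

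In monocyte-like cells, a single cluster led by Hp, the anti-PSGL-1 library had 11 of 27 genes higher than IgG, against a background of 2.06%. Ero1l had 99.8, 185, 202 and 128 CPM and a ratio of 2.03 (1.79 to 2.30), and Hilpda 283, 489, 484 and 336 CPM and 1.71 (1.59 to 1.85). Bnip3 at 1.83 (1.56 to 2.15), Mif at 1.66 (1.54 to 1.78) and Ndrg1 at 1.72 (1.49 to 2.00) were also among them. Egln3, at 19.0, 33.6, 54.6 and 16.1 CPM with a ratio of 2.87 (2.18 to 3.83), reached 50 CPM only in the anti-PSGL-1 library and entered only through it; with the floor on the mean, 10 of 26 genes were higher, where 1.82% of all genes were. The anti-PD-1 library had 7 of 26 genes higher, against 10.2%, among them Ndrg1 at 2.14 (1.85 to 2.49), Hk2 at 1.92 (1.65 to 2.24), Ero1l at 1.85 (1.62 to 2.12), Hilpda at 1.73 (1.60 to 1.87), Pfkp at 1.62 (1.47 to 1.78) and Bnip3 at 1.66 (1.40 to 1.97). No gene tested passed in the combination, where 3.7% of all genes were higher and 0.952% lower. Against the anti-PSGL-1 library the combination had 7 of 27 genes lower, among them Egln3 at 0.295 (0.22 to 0.39), Higd1a at 0.532 (0.481 to 0.587), Mif at 0.577 (0.539 to 0.618) and Vegfa at 0.598 (0.537 to 0.666), where 4.63% of all genes were lower. These counts depended on the clustering: at a finer resolution of 2, 1 gene was higher in the anti-PSGL-1 library and 4 in the anti-PD-1 library. The share of all genes was not computed at that resolution.

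Among neutrophil-like cells only the IgG and anti-PSGL-1 libraries had at least 100 cells. Of 31 genes tested in that comparison 8 were lower under anti-PSGL-1 and none higher, against backgrounds of 9.86% and 9.33%. Vegfa, at 575, 406, 250 and 312 CPM, had a ratio of 0.434 (0.354 to 0.53), Hilpda 0.557 (0.526 to 0.591), Hk2, at 547, 297, 266 and 114 CPM, 0.487 (0.398 to 0.593), and Ldha, at 1624, 1387, 1004 and 799 CPM, 0.618 (0.556 to 0.687). P4ha1, at 471, 456, 268 and 92.2 CPM, had 0.569 (0.463 to 0.696), and Ddit4 0.436 (0.297 to 0.63). The median log2 ratio over the genes tested was -0.31, against 0.02 over all genes. Slc16a3, at 876, 803, 1116 and 1251 CPM, was higher in the anti-PSGL-1 library than in IgG and did not pass 1.5-fold.

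The combination library had 95 neutrophil-like cells, under the number set for a class, and its differences were wider. Against IgG 21 of 32 genes were lower and 1 higher, against backgrounds of 23.1% and 18.7%, and the median log2 ratio was -0.89 against -0.04 over all genes. Hilpda had a ratio of 0.479 (0.439 to 0.523), Hk2 0.209 (0.134 to 0.311), P4ha1 0.196 (0.119 to 0.305), Mif 0.421 (0.354 to 0.499) and Ldha 0.492 (0.418 to 0.577). Against the anti-PSGL-1 library 16 of 32 were lower and none higher, against 20.5% and 14%, among them Mif at 0.441 (0.37 to 0.523) and P4ha1 at 0.344 (0.207 to 0.546). Hilpda at 0.86 and Vegfa at 1.25 did not pass in that comparison. Dissociation stress genes in neutrophil-like cells moved with the lower genes, at 22512, 24113, 17013 and 17263 CPM, and the mitochondrial share was 0.695%, 0.589%, 1.12% and 1.03%. Of 5 erythroid genes 1, 1, 5 and 0 were detected in these cells, at 1.60, 9.91, 206 and 0 CPM summed, so the anti-PSGL-1 library stood apart from the rest. Of 10 melanoma markers 2, 1, 4 and 3 were detected, at 3.20, 9.91, 20.2 and 17.6 CPM, with Mlana, Tyr and Sox10 at 0 in every library, and 8 fibroblast and endothelial genes summed to 43.2, 29.7, 23.9 and 13.2 CPM. The part of these genes in the differences was not tested.

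cDC2-like cells had Hilpda at 453, 274, 455 and 301 CPM, lower than IgG in the anti-PD-1 library by a ratio of 0.605 (0.55 to 0.665) and in the combination by 0.665 (0.597 to 0.74), where 3.66% and 2.38% of all genes were lower. Ndrg1 was higher in all 3 treated libraries, at 90.1, 144, 149 and 146 CPM with ratios of 1.60, 1.65 and 1.63, against backgrounds of 8.12%, 2.91% and 5.3%. Ddit4, at 64.2, 39.7, 75.4 and 29.4 CPM, was lower in the anti-PD-1 library at 0.617 (0.476 to 0.794) and in the combination at 0.458 (0.321 to 0.639), where it entered only through IgG. Pfkp was higher in the anti-PD-1 library at 1.52 (1.38 to 1.67). In cDC1-like cells Ndrg1 was also higher in the anti-PSGL-1 library, at 1.65 (1.35 to 2.02), against 2.73%. B-like cells had Gpi1 higher at 1.58 (1.13 to 2.21) and Hilpda lower at 0.558 (0.324 to 0.945) in the anti-PSGL-1 library, against 5.41% and 12.5%, and migratory dendritic-like cells had Higd1a higher at 1.64 (1.23 to 2.21), against 3.75%.

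Of 20 other glycolysis genes only Hk3 was tested in macrophage-like cells against IgG, and of 30 other HIF pathway genes at most 11 were tested against IgG in a class. Hk3, the hexokinase of myeloid cells, was at 90.3 CPM in IgG and 211 CPM in anti-PD-1 macrophage-like cells, a ratio of 2.34 (2.16 to 2.55), and at 14.3 CPM and 55.4 CPM in cDC2-like cells, a ratio of 3.87 (2.79 to 5.42). In the combination Hk3 had ratios of 1.96 and 3.91 in these classes, so both libraries with anti-PD-1 had more of it. Of all genes, 9.79% and 8.12% were higher in these classes under anti-PD-1, and 3.95% and 5.3% in the combination. In cDC2-like cells Hk3 was far below 50 CPM in IgG and entered only through the treated libraries. Plin2, the lipid droplet coat protein, was higher under anti-PD-1 in cDC2-like cells at 2.34 (2.00 to 2.73) and in regulatory T-like cells at 2.06 (1.62 to 2.62), against 8.12% and 4.62%. In monocyte-like cells 5 of 11 HIF pathway genes tested were higher in the anti-PSGL-1 library and none lower, where 2.06% and 1.37% of all genes were: Ankrd37 at 2.42 (1.92 to 3.07), Hmox1, heme oxygenase, at 1.89 (1.72 to 2.09), Bhlhe40 at 1.82 (1.61 to 2.06), Fam162a at 1.56 and Mxi1 at 1.51. Ankrd37 entered only through that library, and 4 of 10 were higher with the floor on the mean (1.82%). At resolution 2, which left 1 of the 36 genes higher in this class, these genes were not recomputed. In NK-like cells of the combination 2 of 6 were higher, against 4.95%, Fam162a at 1.79 (1.48 to 2.16) and Plin2 at 1.63 (1.23 to 2.17), and 2 lower, against 8.93%, Rora at 0.479 (0.371 to 0.614) and Cited2, a HIF inhibitor, at 0.645 (0.506 to 0.819). In CD8 T-like cells 0 of 6 HIF pathway genes and 0 of 1 other glycolysis genes tested passed in any treated library against IgG.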

How the data were processed

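Single-cell RNA was measured in 4 libraries, 1 for each treatment group, with groups taken from the sample labels. The deposited values are whole-number UMI counts per gene and barcode, made by the authors with Cell Ranger 3.1.0 against mm10, per the submitters' processing notes; the annotation version is not given in the sources used here. Barcodes were kept if they held 300 or more genes, no more than 60000 UMIs and no more than 10% mitochondrial UMIs (9465, 5238, 6869 and 4382 of 9733, 5621, 7302 and 4614). Scrublet, run through scanpy, called 1, 84, 0 and 42 doublets, which is too few to have worked, so the cells with the highest doublet scores were removed instead, at a share that grew with the number of cells (717, 219, 377 and 154 cells, 1467 in all).

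Cells were clustered with scanpy 1.11.5 and leidenalg 0.10.2 on 2000 variable genes without the 36 genes and the related pathway genes, with 30 components, 20 neighbours, resolution 1 and seed 0. A cluster was named for a class when at least 3 of its markers were present in 10% of cells and 1.5-fold above the median cluster. Under 25% of its cells could hold genes of 2 lineages. Outside T and NK cells, a cluster also stayed unnamed when its 10 leading genes held more markers of another class than of its own. T and NK cells were pooled at this step and clustered again with the same settings. Their clusters were named from the shares of cells with UMIs of Cd8a or Cd8b1, Cd4, Foxp3, Cd3 genes, and Ncr1 or Klrb1c. These limits were set after the data were seen, and a difference from the study may come from these rebuilt names. For each class the UMIs of its cells in a library were added up, and classes with at least 100 cells in both libraries were compared. Inside a cluster, libraries were compared when both held at least 80 of its cells. Intervals are exact Poisson, Clopper-Pearson or conditional binomial 95% intervals (scipy 1.17.1). Shares of cells were computed after thinning to 2000 UMIs, which left out shallower cells. No p-value was computed. The procedure was tested on simulated data.

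The 36 members and all lists were chosen with earlier results of these data known. In each class and comparison up to 6 members in each direction were named, in order of the interval bound nearest to 1. Alternatives were a floor of 10 CPM, no floor, no doublet removal, at most 5% mitochondrial UMIs, resolution 2, clustering with the members kept, ratios centred on the median gene, equal weight for each cell, and leaving out cells with a Mki67 or Top2a UMI. Leaving out Pgk1 and Eno1, setting the floor on the mean of both libraries, and these alternatives for the counts in NK-, monocyte- and neutrophil-like cells, were added after seeing the data.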

Additional observations from a re-analysis of the deposited data

Results flagged for a closer look

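Some genes were past 1.5-fold in opposite directions in 2 classes of the same comparison. With the pooled remaining T cells left out, the class with the highest ratio is set here against the class with the lowest. Against IgG and without the 50 CPM floor, that pool was higher still for some of them. It had 2.21 for Pfkp, 2.35 for Ero1l and 2.70 for Hilpda under anti-PD-1. Ddit4 had 2.42 there under anti-PSGL-1, and Hilpda 3.13 in the combination. Ddit4 also had 2.71 under anti-PD-1 and 2.33 in the combination there, against 0.617 and 0.458 in cDC2-like cells. None of these differences between classes was tested, since each group had 1 library. The counts of higher genes in monocyte-like cells, a class named often here, depended on the clustering. They were smaller at resolution 2 under anti-PD-1 and under anti-PSGL-1. For anti-PD-1 against IgG, Pfkp had a ratio of 1.62 in monocyte-like and 0.631 in conventional CD4 T-like cells, Egln1 1.61 and 0.641, and Ero1l 1.85 and 0.40 in the same classes. Hilpda had 1.73 in monocyte-like and 0.605 in cDC2-like cells.

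For anti-PSGL-1 against IgG, neutrophil-like cells had the lowest ratio for each of these 5 genes. Hilpda had 1.71 in monocyte-like and 0.557 in neutrophil-like cells, with B-like cells close by at 0.558, Hk2 1.62 and 0.487, and Vegfa 1.58 and 0.434. Ddit4 had 2.23 in NK-like and 0.436 in neutrophil-like cells, and Slc2a1 1.69 in regulatory T-like and 0.656 in neutrophil-like cells. For the combination against IgG, Hilpda had 1.82 in NK-like and 0.665 in cDC2-like cells.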

How the results depend on the processing

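The 156 ratios past 1.5-fold between libraries in a class were recomputed under the alternatives other than the floor settings. Ratios of the remaining T cells were left out. Macrophage- and monocyte-like cells entered both apart and together. Of the 1092 values, 1012 stayed within the counting interval, 80 moved and 0 changed direction. Of 192 counts, 162 stayed within 1.5 times. Apart from the floor on the mean, the share of all genes past 1.5-fold was not computed under these settings. The counts that follow thus have no background of their own. In CD8 T-like cells under anti-PD-1, 5 genes were higher with a 10 CPM floor, 9 with no floor and 6 without cells holding Mki67 or Top2a, and 1 was lower without those cells and 0 without Pgk1 and Eno1. Under anti-PSGL-1, 4 were higher with no floor. In the combination, 4 were higher with a 10 CPM floor, 6 with no floor, 1 centred on the median gene, 4 with equal weight per cell and 5 without cycling cells, and 2 were lower with no floor. For macrophage- and monocyte-like cells together, the main counts are not given in this text, so only the counts that moved are listed. In the main setting, 9.13% of all genes were higher and 2.91% lower there under anti-PD-1. These shares were 0.811% and 0.737% under anti-PSGL-1, and 3.52% and 1.22% in the combination. In these pooled cells, 0 genes were lower under anti-PD-1 without Pgk1 and Eno1. Under anti-PSGL-1 there, 0 were higher without doublet removal and 2 each when centred, without cycling cells and at resolution 2, and 1 was lower with a 10 CPM floor and 1 with none. In the combination 2 were lower with either floor setting. NK-like cells of the combination had 2 lower genes with a 10 CPM floor, and under anti-PSGL-1 11 were higher without cycling cells and 10 when centred or with equal weight per cell. Monocyte-like cells had 11 higher genes under anti-PD-1 with a 10 CPM floor and 4 at resolution 2, and 1 under anti-PSGL-1 at resolution 2. Neutrophil-like cells under anti-PSGL-1 had 1 higher gene with equal weight per cell. With the 50 CPM floor on the mean of both libraries, 1 gene was lower in monocyte-like cells under anti-PD-1. The cause was not tested. When each cell weighed the same, 34 of the 36 genes had the same highest class. Thinned to 1000 UMIs, the share of NK-like cells with a Vegfa UMI was 23.9%, 29.2%, 22.1% and 18.4%, in the same order of libraries as at 2000 UMIs. No paired analysis was possible because each group had 1 library, and leaving out a replicate was not possible either. Levels under about 50 CPM and classes under 100 cells were too thin for ratios.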

Other observations

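In NK-like cells thinned to 2000 UMIs, the summed UMIs of the 13 glycolysis genes and of the other 23 genes correlated with Pearson r of 0.42 with IgG, 0.55 with anti-PD-1, 0.63 with anti-PSGL-1 and 0.56 with the combination, over 600, 484, 405 and 244 cells that share their library. In CD8 T-like cells r was 0.53, 0.48, 0.53 and 0.46 over 1328, 1128, 1375 and 1715 cells, and in monocyte-like cells 0.70, 0.80, 0.76 and 0.77 over 682, 555, 684 and 457 cells. The myeloid values lay above the lymphoid ones in each library.

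The small unnamed cluster led by S100a9, S100a8 and Ace had Hilpda at 506, 22.4, 814 and 243 CPM.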
